A study of Mus musculus with 6 samples.

Results

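The genes described here are 8 members of the bone morphogenetic protein (BMP) pathway: the ligands Bmp2, Bmp4 and Bmp7, the type I receptor Bmpr1a, the inhibitory Smad gene Smad6, and the target genes Id1, Id2 and Id3. They were taken by symbol from the annotation of the array, each had 1 probe set, and they make up 8 of 19938 named genes. Keratinocytes, the cells that build the epidermis, came from the skin of C57BL/6 late embryos (E18.5), were grown for 2 to 5 days without added calcium, and were profiled on 6 one-colour Affymetrix arrays.

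The Ovol1/2 DKO group (2 arrays) was Ovol2flox/-;K14-Cre; Ovol1-/-, so that it lacked Ovol1 in every cell, carried 1 null Ovol2 allele throughout and was meant to lose the other where the keratin 14 promoter drives Cre, in basal keratinocytes. The labelled Ovol1 KO group (2 arrays) is Ovol1-/- by its labels, which its Ovol1 signal, given below, goes against. The control group (2 arrays) held 2 genotypes by the labels, Ovol2flox/+; Ovol1+/- and Ovol2flox/+;K14-Cre, so controls were themselves heterozygous for some of these alleles. Each array carried RNA pooled from 2 mice, and littermates had shared cages. Ovol1 and Ovol2 encode zinc finger proteins that regulate genes in epithelia. The stated aim of the culture was to find primary changes.

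BMP ligands are secreted dimers that bring type I and type II receptors together. The receptors phosphorylate Smad1, Smad5 and Smad9, which enter the nucleus with Smad4 and switch on target genes, the Id genes and Smad6 among them. Smad6 then damps the signal. Id proteins bind E proteins and related helix-loop-helix factors and keep them from DNA. In skin the pathway is known for its part in hair follicle formation and cycling and in the differentiation of the epidermis.

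Among the 8 genes, Id1 and Id2 stood apart, in opposite directions. Id1 was about 3-fold higher and Id2 was lower in Ovol1/2 DKO, and both passed the test against the arrays labelled Ovol1 KO, while neither passed against control. Bmp7 was higher on both Ovol1/2 DKO arrays without passing. Bmp2, Bmp4, Bmpr1a, Smad6 and Id3 did not pass in any of the 3 comparisons.

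The stretches before the start sites of Id2 and Id3 are shown because Id2 passed a test that Id3, a related target, did not pass. The RefSeq promoter table (GRCm38.p6) held 5 of the 8 genes, and Id1, Bmp2 and Bmp7 are named only. Each sequence is the 250 bases before the annotated start, 5′ to 3′ on the gene's own strand, with capitals marking the motifs found. Id2 lies on the minus strand at chr12:25096093-25096342, and Id3 on the plus strand at chr4:136143572-136143821.
Id2: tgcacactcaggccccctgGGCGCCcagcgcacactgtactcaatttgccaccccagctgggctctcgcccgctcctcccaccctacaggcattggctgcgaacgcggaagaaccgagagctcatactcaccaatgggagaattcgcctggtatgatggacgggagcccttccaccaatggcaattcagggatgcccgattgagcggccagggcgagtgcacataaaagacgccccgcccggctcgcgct
Id3: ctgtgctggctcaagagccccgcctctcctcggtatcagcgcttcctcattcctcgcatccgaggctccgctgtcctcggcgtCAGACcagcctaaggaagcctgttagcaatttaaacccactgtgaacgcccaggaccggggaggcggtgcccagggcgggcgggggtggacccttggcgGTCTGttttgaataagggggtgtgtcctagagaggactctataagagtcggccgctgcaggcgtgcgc

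Motifs were searched on both strands as exact letters. GGCGCC, a palindrome bound by Smad proteins of the BMP branch, occurred once before Id2, at 231 to 226 bases before the start, and was not found before Id3. It occurs in 9.59% of the 32851 windows of this length in the table. CAGAC, a Smad box, occurred before Id3 as written at 167 to 163 bases and as its reverse complement at 68 to 64 bases, and was not found before Id2; 42.2% of windows hold it. CCGTTA, a core reported for Ovol factors (2.18% of windows), and CACCTG, the E-box bound by Zeb factors (17.2%), were found in neither window. Of the other 3 windows, that of Bmpr1a held GGCGCC at 198 to 193 bases before the start and that of Bmp4 held CACCTG, as its reverse complement, at 177 to 172 bases. None of these motifs overlapped another. The Id2 and Id3 windows each had 62.8% G and C and 18 CpG. A match describes letters in a window and is not evidence of binding.

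The series as a whole needs a few facts before the results. Median intensity per array ran from 103.3 to 109.8, and levels below are log2(intensity + 16), on which changes of dim genes are understated. Probe sets without a gene name had medians of up to 6.20 on this scale, and a level no higher than that is called near background. Ovol1 read 5.96 and 6.22 on the Ovol1/2 DKO arrays, 10.75 and 9.80 on the arrays labelled Ovol1 KO, and 9.64 and 9.95 on the control arrays, and it fell in Ovol1/2 DKO against control (-3.70, limma adjusted p = 0.00755). The arrays labelled Ovol1 KO thus kept Ovol1 signal against their label. The same probe set fell in Ovol1/2 DKO, which is Ovol1-/- by its label too. Why these groups differ was not tested. Ovol2 read 7.63 and 7.496 on the Ovol1/2 DKO arrays, 7.88 and 8.38 on the arrays labelled Ovol1 KO, and 8.37 and 6.97 on the control arrays. Its Ovol1/2 DKO and control arrays overlapped, and the difference of -0.10 did not pass (limma adjusted p = 1.0). All samples carry a female label, yet Xist, which coats the silenced X, was near background on control replicate 1 (4.43) and on labelled Ovol1 KO replicate 1 (4.54), against 10.99 to 11.43 on the other arrays. The Y-linked gene Eif2s3y read 13.80 on labelled Ovol1 KO replicate 1 and at most 5.14 elsewhere. The differences of Bmp7 and of the pathway genes that passed are therefore also given without these 2 arrays. That leaves 1 control and 1 labelled Ovol1 KO array, so the spread within a group is seen in Ovol1/2 DKO alone. For single genes only the sizes of these differences are given. Counts of passing genes without these 2 arrays come further below, with their limit. The keratinocyte label was borne out by Krt5, at 13.39 to 13.55, and Krt14, at 13.21 to 13.39, on all 6 arrays.

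**Figure D1:**
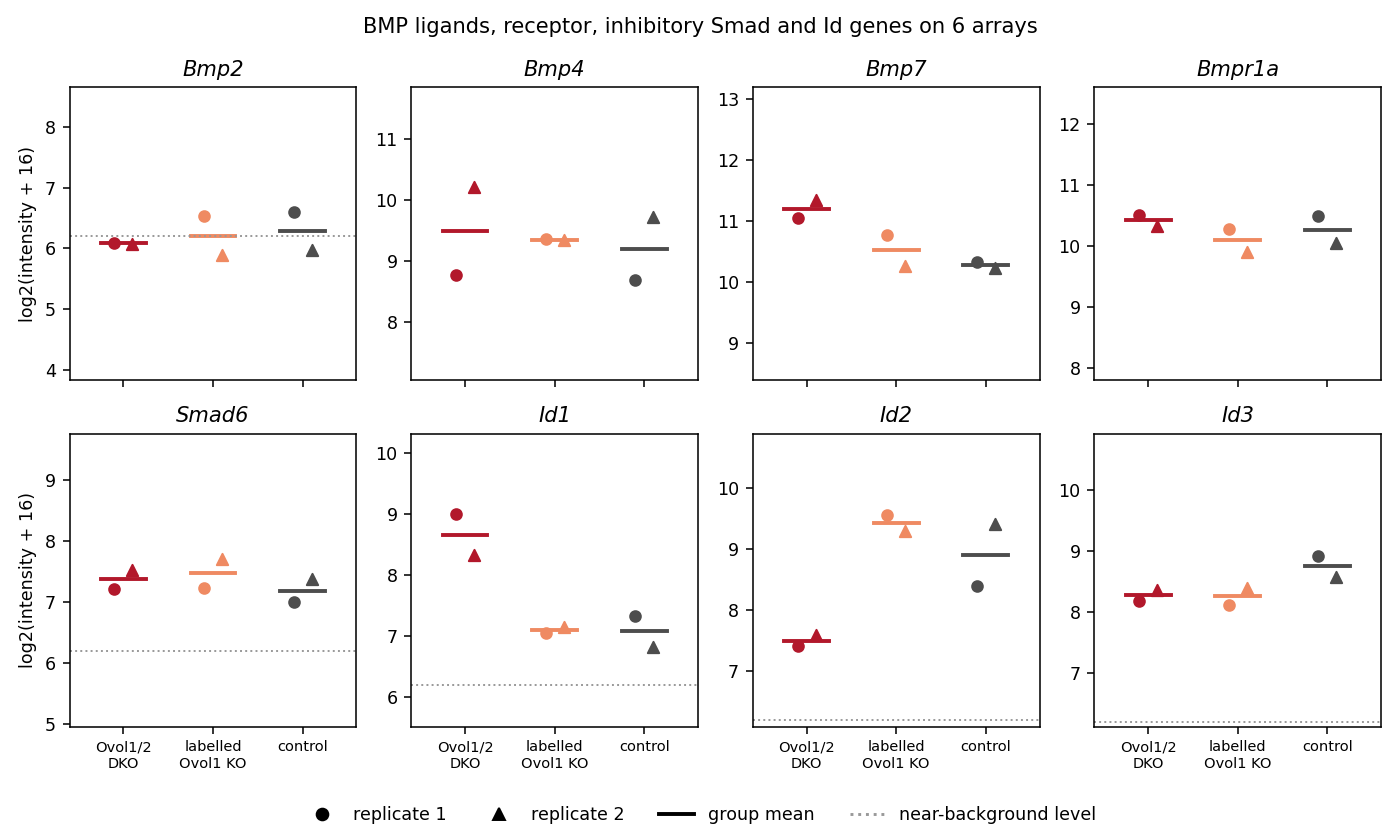
Level of each of the 8 genes as log2(intensity + 16), in Ovol1/2 DKO, labelled Ovol1 KO and control; circles are replicate 1, triangles replicate 2, bars group means of 2 arrays, and every panel spans the same height on the log2 scale, with a dotted line at the near-background level of 6.20 where it lies in the panel. Id1 sits higher and Id2 lower on both Ovol1/2 DKO arrays than on the other 4 arrays, and Bmp2 lies around the dotted line in every group.

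Id1, an inhibitor of basic helix-loop-helix factors and a much-used readout of BMP signalling, read 8.99 and 8.32 on the Ovol1/2 DKO arrays, 7.04 and 7.15 on the arrays labelled Ovol1 KO, and 7.32 and 6.82 on the control arrays. Both Ovol1/2 DKO arrays lay above all 4 others. The group means were 8.66 ± 0.47, 7.10 ± 0.07 and 7.07 ± 0.35 (SD, n = 2 each) in Ovol1/2 DKO, labelled Ovol1 KO and control. Id1 rose in Ovol1/2 DKO against the arrays labelled Ovol1 KO (log2 difference 1.56, SE 0.29, 2 arrays a group, limma adjusted p = 0.0437). Against control the difference was nearly the same, 1.59 (SE 0.29, 95% interval 0.89 to 2.29), and the limma adjusted p was 0.0541, so it did not pass. The adjusted p values lay close to the threshold of 0.05 in both comparisons. Without any 1 of the labelled Ovol1 KO or Ovol1/2 DKO arrays the call against labelled Ovol1 KO was lost, at differences of 1.23 to 1.89 and limma adjusted p of 0.0861 to 0.2385, and with an offset of 64 it was lost at 1.29 (limma adjusted p = 0.0877). Without the 2 arrays lacking Xist signal, the Id1 difference was 1.84 against control and 1.51 against labelled Ovol1 KO.

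Id2, an inhibitor of the same helix-loop-helix factors, went the other way. It read 7.41 and 7.60 on the Ovol1/2 DKO arrays, 9.57 and 9.31 on the arrays labelled Ovol1 KO, and 8.40 and 9.41 on the control arrays. Both Ovol1/2 DKO arrays lay below the other 4, and control replicate 1 stood nearest to them. Id2 fell in Ovol1/2 DKO against the arrays labelled Ovol1 KO, 3.82-fold (log2 difference -1.93, SE 0.34, 2 arrays a group, limma adjusted p = 0.0368). Against control it was lower by -1.40 on the log2 scale (SE 0.34, 95% interval -2.23 to -0.58) and did not pass (limma adjusted p = 0.135). The 2 control arrays differed by more than the arrays of either other group did (SD 0.14 in Ovol1/2 DKO, 0.19 in labelled Ovol1 KO and 0.72 in control). Without control replicate 1, which lacked Xist signal, the difference from control became -1.91, and without control replicate 2 it was -0.90. Without both arrays lacking Xist signal it was -1.91 against control and -1.80 against labelled Ovol1 KO. Against labelled Ovol1 KO the call was lost without any 1 of those 2 groups' arrays (-2.07 to -1.80, limma adjusted p of 0.0916 to 0.1982), with quantile normalization (-2.00, limma adjusted p = 0.0585) and with an offset of 64 (-1.69, limma adjusted p = 0.0884).

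Id3, the third Id target of the set, did not pass in any comparison. It read 8.19 and 8.36 on the Ovol1/2 DKO arrays, 8.12 and 8.39 on the arrays labelled Ovol1 KO, and 8.91 and 8.58 on the control arrays. Both control arrays lay above the other 4, and Ovol1/2 DKO and labelled Ovol1 KO overlapped. The difference was -0.47 for Ovol1/2 DKO against control (SE 0.22, limma adjusted p = 0.586) and -0.49 for labelled Ovol1 KO against control (SE 0.22, limma adjusted p = 0.999), neither passing. Between Ovol1/2 DKO and labelled Ovol1 KO it was 0.02, with a 95% interval of -0.51 to 0.55, which leaves out differences of the size seen for Id1 and Id2.

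Smad6, the inhibitory Smad that BMP signalling itself induces, read 7.22 and 7.52 on the Ovol1/2 DKO arrays, 7.23 and 7.70 on the arrays labelled Ovol1 KO, and 6.998 and 7.37 on the control arrays. All 3 groups overlapped, with replicate 2 above replicate 1 in each. The Ovol1/2 DKO minus control difference was 0.19 (95% interval -0.43 to 0.81), and Smad6 did not pass in any comparison (limma adjusted p of at least 0.925).

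**Figure D2:**
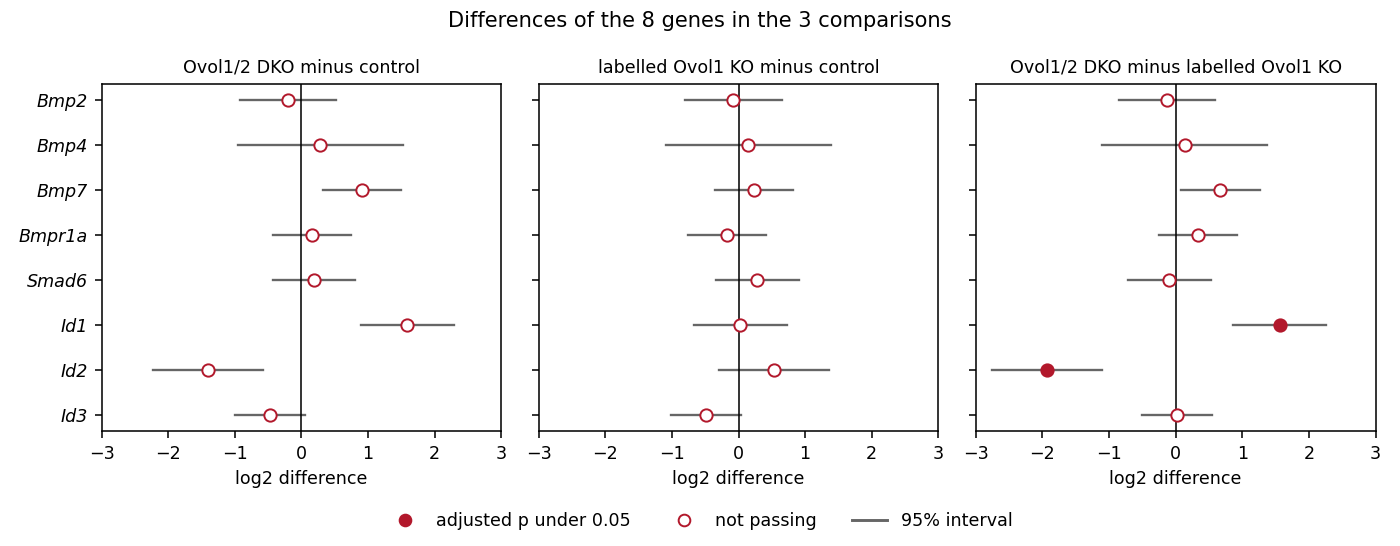
Log2 difference of each of the 8 genes in the 3 comparisons, with its 95% interval from the limma fit over 6 arrays; filled points have an adjusted p under 0.05. Only Id1 and Id2 in Ovol1/2 DKO against labelled Ovol1 KO are filled, and the Bmp7 interval against control, 0.32 to 1.496, lies above 0 without passing.

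Of the ligands, Bmp7, a BMP of many epithelia, was the one whose Ovol1/2 DKO arrays stood apart. It read 11.05 and 11.36 on the Ovol1/2 DKO arrays, 10.78 and 10.27 on the arrays labelled Ovol1 KO, and 10.34 and 10.24 on the control arrays. Both Ovol1/2 DKO arrays lay above the other 4, with labelled Ovol1 KO replicate 1 nearest. The difference was 0.91 against control (SE 0.25, 95% interval 0.32 to 1.496, limma adjusted p = 0.180) and 0.67 against labelled Ovol1 KO (SE 0.25, limma adjusted p = 0.276), and it did not pass in either. Without the 2 arrays lacking Xist signal the differences were 0.96 against control and 0.93 against labelled Ovol1 KO.

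Bmp4, a ligand of dermal as well as epithelial cells in skin, read 8.77 and 10.22 on the Ovol1/2 DKO arrays, 9.37 and 9.34 on the arrays labelled Ovol1 KO, and 8.69 and 9.72 on the control arrays. The replicates differed by over 1 on the log2 scale within Ovol1/2 DKO and within control, more than any 2 group means did. The Ovol1/2 DKO minus control difference of 0.29 had a 95% interval of -0.95 to 1.53, which includes both a rise of over 2-fold and a fall. The summed intensity of 12 fibroblast markers was higher on replicate 2 in every group, whereas Bmp4 was so only in Ovol1/2 DKO and control. The sum was 4331 and 5531 on Ovol1/2 DKO replicates 1 and 2, 2691 and 3247 on the labelled Ovol1 KO arrays, and 2578 and 3240 on the control arrays. The part of these markers in the Bmp4 levels was not tested. In bulk RNA, fewer cells of a type and less RNA per cell cannot be told apart.

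Bmp2, the ligand closest in sequence to Bmp4, read 6.09 and 6.08 on the Ovol1/2 DKO arrays, 6.53 and 5.89 on the arrays labelled Ovol1 KO, and 6.59 and 5.98 on the control arrays. Bmp2 was near background on 4 of the 6 arrays, both Ovol1/2 DKO arrays among them, and the groups overlapped. Bmpr1a, the type I receptor through which BMP2 and BMP4 signal in the epidermis and hair follicle, read 10.50 and 10.34 on the Ovol1/2 DKO arrays, 10.28 and 9.91 on the arrays labelled Ovol1 KO, and 10.49 and 10.05 on the control arrays. Ovol1/2 DKO overlapped with control, and the difference was 0.15 (95% interval -0.43 to 0.74); it did not pass against labelled Ovol1 KO either (0.33, limma adjusted p = 0.644).

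In counts, 0 of the 8 genes passed limma in Ovol1/2 DKO against control, where 2.02% of all genes passed (0.622% higher and 1.40% lower), and 3 of 8 (Bmp7, Id1 and Id2) had an unadjusted p under 0.05, against 10.4% of all genes. The arrays of these 2 groups did not overlap for 4 of the 8, 2 higher and 2 lower, against 39.2% of all genes (21.1% higher and 18.1% lower). In Ovol1/2 DKO against labelled Ovol1 KO, 2 of 8 passed limma, 1 higher (Id1) and 1 lower (Id2), where 3.15% of all genes passed, 1.24% higher and 1.91% lower. Their arrays did not overlap for 4 of the 8, 3 higher and 1 lower, against 43.1% of all genes (24.6% in the higher direction). In labelled Ovol1 KO against control, 0 of 8 passed limma and 0 had an unadjusted p under 0.05, where 0% and 0.767% of all genes did. The arrays did not overlap for 1 of the 8 (Id3, lower), against 19.1% of all genes (8.82% higher and 10.3% lower). The median difference of the 8 genes was 0.17, 0.08 and 0.09 in Ovol1/2 DKO against control, in Ovol1/2 DKO against labelled Ovol1 KO, and in labelled Ovol1 KO against control, against 0.03, 0.02 and -0.00 over all genes. The first 2 comparisons share the Ovol1/2 DKO arrays, and each group enters 2 comparisons.

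**Figure D3:**
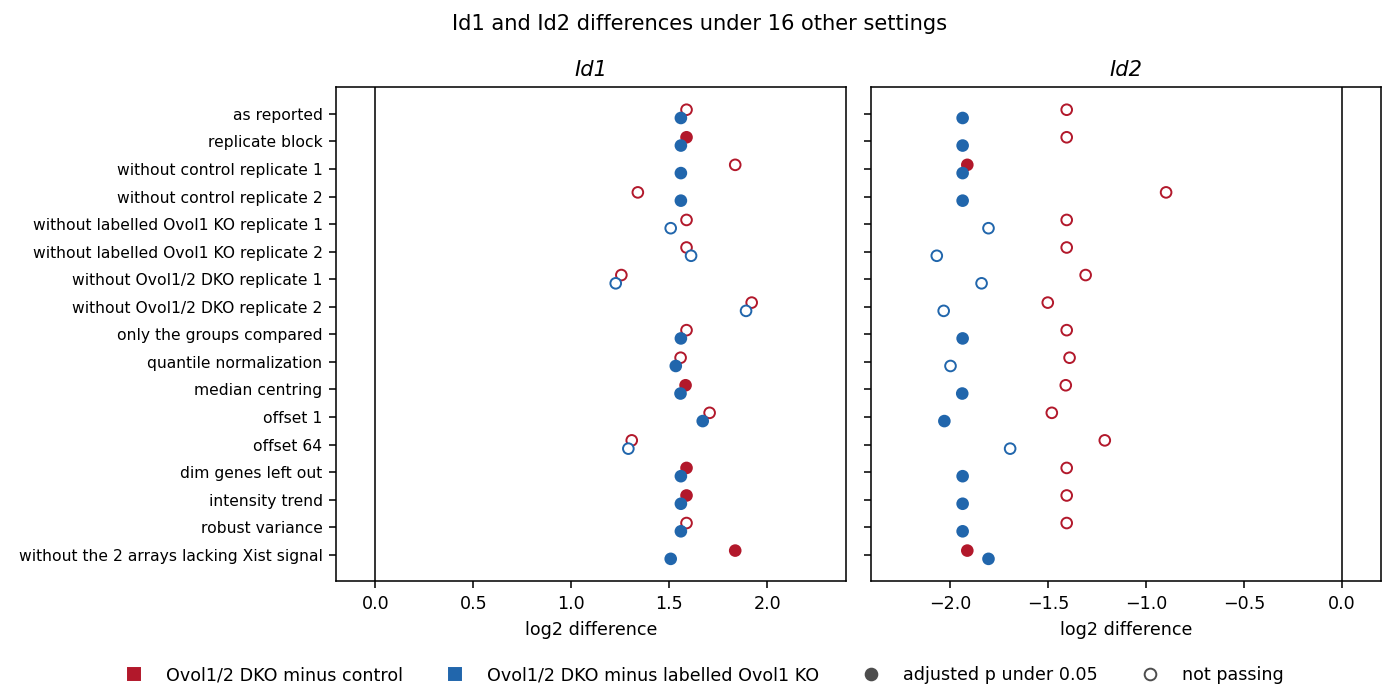
Log2 difference of Id1 (left) and Id2 (right) under the reported fit and 16 other settings, for Ovol1/2 DKO minus control (red) and Ovol1/2 DKO minus labelled Ovol1 KO (blue); filled points have an adjusted p under 0.05. Id1 stays between 1.23 and 1.92 and Id2 between -2.07 and -0.90, while the call changes between settings. Leaving arrays out could not turn the sign, since both Ovol1/2 DKO arrays lie beyond all others, and several settings leave the difference unchanged.

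The rest of the pathway was read from lists that held 54 further measured genes. In Ovol1/2 DKO against control 1 rose, 1 fell and 52 did not pass, where 2.02% of all genes passed. In Ovol1/2 DKO against labelled Ovol1 KO 2 rose, 2 fell and 50 did not pass, where 3.15% of all genes passed. In labelled Ovol1 KO against control none of the 54 passed limma, where 0% of all genes did. In Ovol1/2 DKO against control 12 of the 54 had an unadjusted limma p under 0.05, against 10.4% of all genes. In Ovol1/2 DKO against labelled Ovol1 KO 12 of the 54 had one, against 14.1% of all genes. In labelled Ovol1 KO against control none had one, against 0.767% of all genes. The medians over the 54 were 0.17, 0.17 and -0.01, beside the medians of 0.03, 0.02 and -0.00 over all genes.

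Sostdc1, a secreted antagonist of BMP and Wnt ligands in teeth and skin appendages, had the largest difference in the pathway lists. It read 9.16 and 10.58 on the Ovol1/2 DKO arrays, 7.35 and 6.49 on the arrays labelled Ovol1 KO, and 7.18 and 6.87 on the control arrays. Both Ovol1/2 DKO arrays lay far above the other 4 and differed between themselves by over 1. Sostdc1 rose 7.18-fold against control (log2 difference 2.84, SE 0.50, 2 arrays a group, limma adjusted p = 0.0459) and 7.73-fold against labelled Ovol1 KO (2.95, SE 0.50, limma adjusted p = 0.0311). The call against control was lost without either control array, without either labelled Ovol1 KO array and without Ovol1/2 DKO replicate 2 (2.13 to 3.001, limma adjusted p of 0.0582 to 0.1915), with the compared groups fitted alone (limma adjusted p = 0.0582), with quantile normalization (limma adjusted p = 0.0875) and with an offset of 64 (limma adjusted p = 0.126). The call against labelled Ovol1 KO was lost without either labelled Ovol1 KO array and without Ovol1/2 DKO replicate 2 (2.24 to 3.38, limma adjusted p of 0.0815 to 0.1152), with quantile normalization (limma adjusted p = 0.0548) and with an offset of 64 (limma adjusted p = 0.0905). With a replicate block the call against control was lost too (2.84, limma adjusted p = 0.0606). Without the 2 arrays lacking Xist signal Sostdc1 differed by 3.001 from control and by 3.38 from labelled Ovol1 KO.

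Of 11 other ligands, Bmp8b, a ligand known from mouse germ cell and brown fat work, fell to near background in Ovol1/2 DKO. It read 6.11 and 5.66 on the Ovol1/2 DKO arrays, 8.28 and 7.70 on the arrays labelled Ovol1 KO, and 8.02 and 8.32 on the control arrays. The 2 Ovol1/2 DKO arrays were well below the other 4. The log2 difference was -2.28 against control (SE 0.28, 2 arrays a group, limma adjusted p = 0.0166) and -2.11 against labelled Ovol1 KO (SE 0.28, limma adjusted p = 0.0153). The call against control was lost without control replicate 2 or either Ovol1/2 DKO array (-2.51 to -2.06, limma adjusted p of 0.0591 to 0.1121), and that against labelled Ovol1 KO without labelled Ovol1 KO replicate 1 or either Ovol1/2 DKO array (-2.33 to -1.82, limma adjusted p of 0.0556 to 0.1104). With an offset of 64 both were lost (limma adjusted p = 0.0561 and 0.0504). Without the 2 arrays lacking Xist signal the differences were -2.43 against control and -1.82 against labelled Ovol1 KO. Bmp15, an oocyte ligand, fell by 1.35 on the log2 scale against labelled Ovol1 KO (SE 0.21, limma adjusted p = 0.0245). However, all its levels (4.56 and 4.74 in Ovol1/2 DKO, 5.98 and 6.02 in labelled Ovol1 KO) were near background. The call was lost without any 1 of these arrays and with an offset of 64 (limma adjusted p = 0.0918). Without the 2 arrays lacking Xist signal the Bmp15 difference was -1.37.

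Of 9 other receptors and co-receptors, Bmpr1b, a type I receptor related to Bmpr1a, read 9.40 and 9.13 on the Ovol1/2 DKO arrays, 7.42 and 6.41 on the arrays labelled Ovol1 KO, and 7.95 and 7.07 on the control arrays. It rose 5.10-fold in Ovol1/2 DKO against labelled Ovol1 KO (log2 difference 2.35, SE 0.42, 2 arrays a group, limma adjusted p = 0.0359) and differed by 1.76 from control without passing (SE 0.42, limma adjusted p = 0.120). The call was lost without any 1 of the labelled Ovol1 KO or Ovol1/2 DKO arrays (1.85 to 2.85, limma adjusted p of 0.0603 to 0.1875) and with an offset of 64 (1.96, limma adjusted p = 0.0761). Without the 2 arrays lacking Xist signal Bmpr1b differed by 2.20 from control and by 2.85 from labelled Ovol1 KO. Acvrl1, another type I receptor, read 9.61 and 10.14 on the Ovol1/2 DKO arrays against 8.80 and 8.81 on the control arrays, a difference of 1.08 that did not pass (SE 0.25, limma adjusted p = 0.116). All 9 receptor genes had a difference above 0 in this comparison, as did 11090 of all 19938 genes. Their median was 0.35, against 0.03 over all genes. Their arrays did not overlap for 5 of 9 in the higher direction, against 21.1% of all genes. Receptors were not alone in a median above that of all genes. In this comparison it was 0.47 for the 13 antagonists and 0.42 for the 3 E proteins. It was 0.21 for the 10 Smads and regulators, 0.14 for the 8 other targets and -0.05 for the 11 other ligands.

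**Figure D4:**
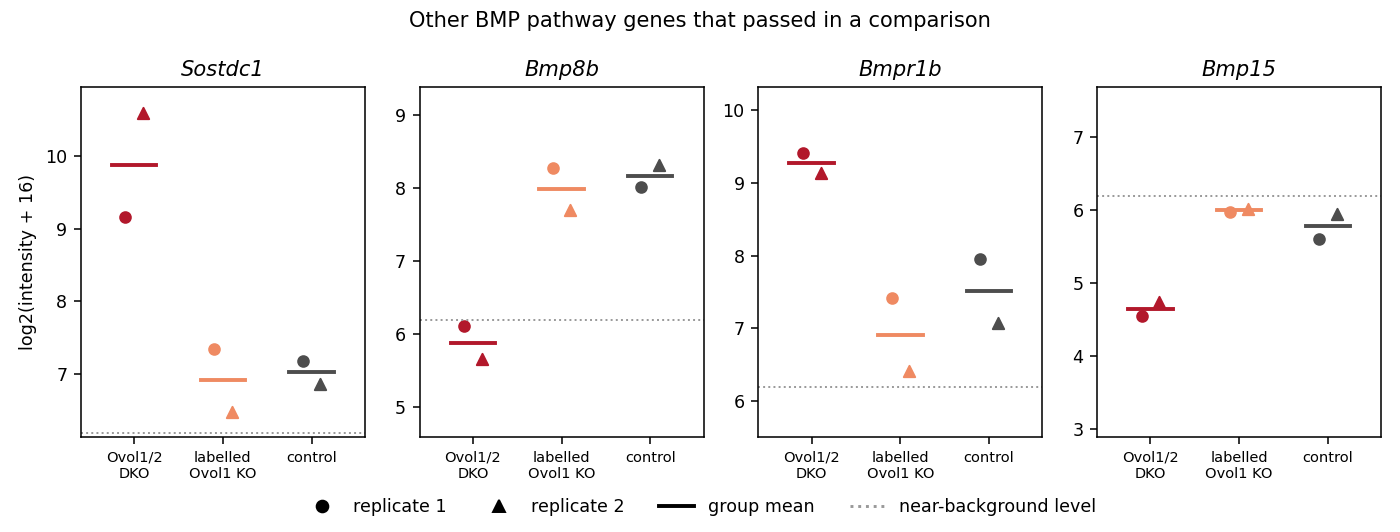
Level of the 4 pathway genes outside the set of 8 that passed in a comparison, as log2(intensity + 16), by group; circles are replicate 1, triangles replicate 2, bars group means of 2 arrays, and the dotted line marks the near-background level of 6.20. Sostdc1 and Bmpr1b are higher and Bmp8b and Bmp15 lower on both Ovol1/2 DKO arrays than on the other 4, with all Bmp15 points under the dotted line.

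None of 10 other Smads and Smad regulators passed. Smurf1, a ubiquitin ligase that targets Smad1 and Smad5, read 10.78 and 10.44 on the Ovol1/2 DKO arrays against 11.41 and 11.37 on the control arrays (log2 difference -0.78, SE 0.22, limma adjusted p = 0.186). Smad5, which carries the BMP signal to the nucleus, read 10.58 and 10.44 against 9.75 and 9.65 on the arrays labelled Ovol1 KO (0.81, SE 0.23, limma adjusted p = 0.158), and its relative of the ligase family, Smurf2, differed by 0.77 in the same comparison (limma adjusted p = 0.176). Of 13 measured antagonists and modulators 12 did not pass in either comparison with Ovol1/2 DKO. An unadjusted limma p under 0.05 was seen for 5 of the 13 against control, Sostdc1 among them, against 10.4% of all genes. It was seen for 4 of the 13 against labelled Ovol1 KO, against 14.1% of all genes. The 13 went in both directions, with 9 differences above 0 against control and 8 against labelled Ovol1 KO. Among 8 other genes often induced by BMP, the median differences were 0.14 against control and -0.11 against labelled Ovol1 KO. The transcription factor Gata3 differed by 0.44 from control (limma adjusted p = 0.967) and the helix-loop-helix gene Atoh8 by -0.25 (limma adjusted p = 0.935), with Atoh8 near background on all 6 arrays. Among the 3 E proteins, which Id proteins bind, Tcf4 read 10.00 and 9.96 on the Ovol1/2 DKO arrays against 9.27 and 9.04 on the control arrays (0.82, SE 0.21, limma adjusted p = 0.155), and Tcf3 differed by 0.42 (limma adjusted p = 0.673). Against labelled Ovol1 KO the Tcf4 difference was 0.93 (limma adjusted p = 0.0800).

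**Figure D5:**
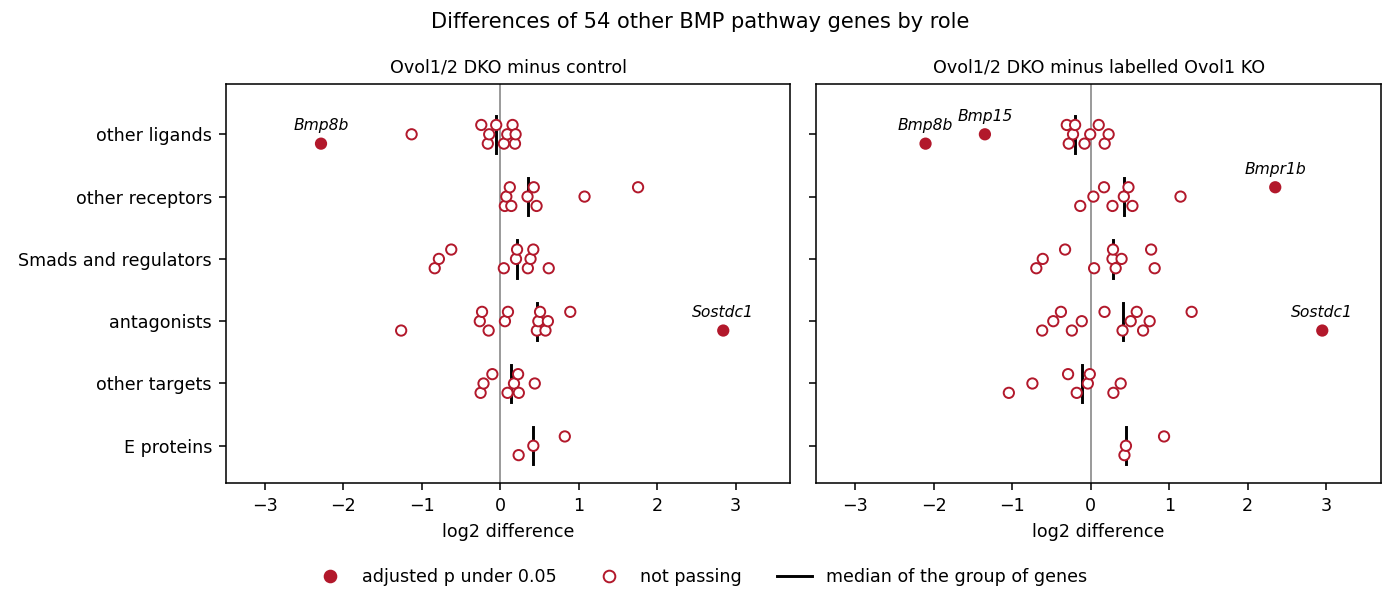
Log2 difference of 54 other BMP pathway genes by role, in Ovol1/2 DKO minus control (left) and Ovol1/2 DKO minus labelled Ovol1 KO (right); each point is 1 gene, filled where the adjusted p is under 0.05, and black ticks are medians. Most points lie within 1 of 0, with Sostdc1 and Bmp8b filled in both panels and Bmpr1b and Bmp15 filled in the right panel.

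Labelled Ovol1 KO against control gave no difference in the pathway that passed. For the 8 genes the differences ran from -0.49 (Id3) to 0.53 (Id2), and the limma adjusted p was 0.999 for each. The Id2 difference was -0.11 without the 2 arrays lacking Xist signal. The ones with the smallest p in their lists were Nog, a BMP antagonist (-0.82, SE 0.38), Fst, which binds activins and BMPs (-0.64, SE 0.40), Smad7, an inhibitory Smad (-0.51, SE 0.35), Smurf2 (-0.38, SE 0.23), Eng, a co-receptor of endothelial cells (-0.45, SE 0.24), Bmpr1b (-0.59, SE 0.42), Bmp15 (0.22, SE 0.21), Gdf7 (0.25, SE 0.33), Dlx5 (0.97, SE 0.87), Dlx3 (0.83, SE 0.80), Tcf12 (-0.19, SE 0.27) and Tcf4 (-0.11, SE 0.21), none of which passed.

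Cell type markers were read beside these results. The 10 keratinocyte markers summed to 47980 to 48769 in intensity in Ovol1/2 DKO, 37889 to 40601 in labelled Ovol1 KO and 41689 to 43066 in control. Of them Trp63 passed, against labelled Ovol1 KO (1.097, limma adjusted p = 0.0465). Krt1 and Krt10 went the other way without passing, at -0.57 and -0.54 against labelled Ovol1 KO and -0.28 and -0.23 against control. The other 8 differences were above 0 in both comparisons. Of 12 fibroblast markers, Thy1 rose in Ovol1/2 DKO against control (log2 difference 1.67, limma adjusted p = 0.0187) and against labelled Ovol1 KO (1.90, limma adjusted p = 0.0106), and 11 did not pass in either. Their summed intensity was 4331 to 5531 in Ovol1/2 DKO, 2691 to 3247 in labelled Ovol1 KO and 2578 to 3240 in control. The list did not move as one, and its median difference against control was 0.16. The arrays did not overlap for 3 of 12, Fbln1 (0.97), Thy1 and Postn (2.21), all higher. That is near the 21.1% of all genes whose arrays did not overlap in that direction. The arrays overlapped for the other 9 markers, with Dcn at -0.00 and Pdgfra at -0.66. No marker is listed at 0, and Lum, a defining fibroblast gene, was near background on all 6 arrays. Of 7 dermal papilla markers none passed against control. Their sum was 2452 to 3053 in Ovol1/2 DKO, 723 to 1041 in labelled Ovol1 KO and 1050 to 1458 in control. Vcan, the brightest of them, passed against labelled Ovol1 KO (2.51, limma adjusted p = 0.0156). The sum does not stand for the list: its median difference was -0.18 against labelled Ovol1 KO, with 3 of 7 above 0. Against control the median was 0.18, with 5 of 7 above 0. The 8 melanocyte markers summed to 662 to 804 in Ovol1/2 DKO, 865 to 1130 in labelled Ovol1 KO and 1210 to 1362 in control, with none passing. The 5 endothelial markers summed to 460 to 478 in Ovol1/2 DKO, 379 to 381 in labelled Ovol1 KO and 602 to 755 in control. The 5 leukocyte markers summed to 1318 to 2601 in Ovol1/2 DKO, 2083 to 4631 in labelled Ovol1 KO and 1849 to 2901 in control. Kdr was the brightest endothelial marker on all 6 arrays, at 7.82 to 9.19. Cd68 was by far the brightest leukocyte marker, at 10.15 to 12.12, so neither sum stands for its list. None of either list passed against control, and Pecam1 passed against labelled Ovol1 KO (1.28, limma adjusted p = 0.0204). The rest of the endothelial list did not follow it there: Kdr -0.08, Cdh5 -0.07, Emcn 0.03 and Tek 0.05. Against control Kdr differed by -1.15 and Pecam1 by 0.84. The part of these markers in the Id1, Id2 and Sostdc1 differences was not tested.

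The genes most like each of the 8 were taken as those with the highest Pearson correlation over the 6 arrays, among the 1964 genes that were at least as bright as the median gene and had an SD of 0.5 or more. With 6 arrays in 3 groups such correlations describe these arrays only. Id2 was most like Foxq1 (r = 0.999) and Ptk6 (r = 0.999). Foxq1, a forkhead factor, read 5.75 and 5.99 on the Ovol1/2 DKO arrays, 9.22 and 8.78 on the arrays labelled Ovol1 KO, and 7.15 and 8.96 on the control arrays, which repeats the lower control replicate 1. Id1 was most like Nrarp, a Notch pathway feedback gene (r = 0.986), and Macrod2 (r = 0.981). Bmp7 was most like Vwa5a and Ptms (r = 0.984 for each). Bmp4 was most like Klhl24 (r = 0.986) and Prune2 (r = 0.958), Bmpr1a like Ccdc34 (r = 0.998) and Rev1 (r = 0.994), Smad6 like Eva1a (r = 0.972) and Tcf15 (r = 0.942), Bmp2 like Plagl1 (r = 0.968) and Mslnl (r = 0.922), and Id3 like Npr3 (r = 0.917) and Kdr (r = 0.898).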

How the data were processed

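The authors deposited a linear intensity for each probe set, computed with Affymetrix Expression Console 1.1.1 and PLIER 2.0, per the submitters' processing notes; their settings are not stated in what was read here. Of 35556 probe sets, 21789 had 1 gene symbol in the platform annotation and 1621 had several. Symbols were updated by Entrez identifier, and the probe set with the highest mean stood for a gene, leaving 19938 genes. Values were taken as log2(intensity + 16). The 3 comparisons came from a single limma 3.58.1 fit of the 6 arrays (R 4.3.3; 3 residual and 3.68 prior degrees of freedom), with Benjamini-Hochberg adjustment over all genes of each; genes passed at an adjusted p below 0.05. An exact test of 2 arrays against 2 cannot reach a two-sided p below 0.333, and limma borrows the spread from the other genes and groups. Replicates are biological by their titles. The number of arrays limits the precision, with a median SE of 0.245. The fit was also run on simulated data with independent noise of equal spread in all groups. Departures shared by replicate 1 arrays, given below, were left out of it, so that run does not vouch for the calls.

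Members and lists were chosen with earlier results of these data known. All 8 members are named; in each other pathway list every passing gene is named, or up to 2 with the smallest p where none passed. Grem1 and the marker genes named beyond it were picked with their values in view. The fit was repeated with a replicate block, without each array in turn, on the compared groups alone, after quantile normalization or median centring, with offsets of 1 or 64, without dim genes, and with an intensity trend or robust variance. Leaving out together the 2 arrays without Xist signal was added after seeing the data, as was the near-background level. No member had another probe set to try.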

Additional observations from a re-analysis of the deposited data

How the results depend on the processing

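Id1, Id2 and Bmp7 kept their sign in Ovol1/2 DKO against control and against labelled Ovol1 KO under the 16 alternatives. Leaving arrays out could not turn it, since both Ovol1/2 DKO arrays lay beyond all others for these genes. Calls of Id1 and Id2 depended on the alternatives, and the causes were not tested. A fit that leaves an arm with 1 array assumes that it varies like the other groups. Without the 2 arrays lacking Xist signal only Ovol1/2 DKO keeps a replicate, so counts of passing genes there rest on the spread of that pair. In Ovol1/2 DKO against control, 403 genes passed, 99 to 455 when 1 array was left out, 155 with an offset of 64 and 1395 without the 2 arrays lacking Xist signal; 0 members passed, 0 to 1 when 1 array was left out, 1 (Id1) with a replicate block, median centring, dim genes left out or an intensity trend, and 2 without the arrays lacking Xist signal. In Ovol1/2 DKO against labelled Ovol1 KO, 628 genes passed, 135 to 831 when 1 array was left out, 1022 with a replicate block, 311 with an offset of 64 and 1508 without the arrays lacking Xist signal; 2 members passed, 0 to 2 when 1 array was left out, 1 (Id1) with quantile normalization and 0 with an offset of 64. In labelled Ovol1 KO against control, 0 genes passed, 0 to 3 when 1 array was left out and 20 without the arrays lacking Xist signal; 0 members passed under any alternative.

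Replicate numbers are shared between groups, and across genes the replicate 1 arrays' departures from their group means had correlations of 0.490 for Ovol1/2 DKO with control, 0.194 for Ovol1/2 DKO with labelled Ovol1 KO and 0.261 for labelled Ovol1 KO with control. No label ties a number to a litter or a day, and the reported fit has no block. With the block Id1 also passed against control (1.59, limma adjusted p = 0.0297), as did Bmpr1b (1.76, limma adjusted p = 0.0227), Tcf4 passed against labelled Ovol1 KO (0.93, limma adjusted p = 0.0380), and Sostdc1 no longer passed against control (2.84, limma adjusted p = 0.0606).

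Signs turned for differences that did not pass. When 1 array was left out, the range in Ovol1/2 DKO against control was -0.51 to 0.10 for Bmp2, -0.44 to 1.01 for Bmp4 and -0.069 to 0.37 for Bmpr1a. In Ovol1/2 DKO against labelled Ovol1 KO it was -0.44 to 0.19 for Bmp2, -0.59 to 0.86 for Bmp4, -0.33 to 0.14 for Smad6, -0.12 to 0.15 for Id3 and -2.42 to 0.33 for Dlx3, which passed without labelled Ovol1 KO replicate 2. In labelled Ovol1 KO against control it was -0.39 to 0.24 for Bmp2, -0.37 to 0.66 for Bmp4, -0.018 to 0.49 for Bmp7, -0.40 to 0.043 for Bmpr1a, -0.22 to 0.28 for Id1, -0.13 to 0.63 for Gdf7, -0.55 to 2.50 for Dlx5, -0.54 to 2.21 for Dlx3, -0.48 to 0.10 for Tcf12 and -0.26 to 0.044 for Tcf4. Without the 2 arrays lacking Xist signal, the sign turned for Bmp2 (0.10) and Bmp4 (-0.23) in Ovol1/2 DKO against control, for Bmp2 (0.19), Id3 (-0.12) and Dlx3 (0.33) in Ovol1/2 DKO against labelled Ovol1 KO, and for Bmp4 (-0.38), Id2 (-0.11), Fst (0.13), Dlx5 (-0.31) and Dlx3 (-0.41) in labelled Ovol1 KO against control. With quantile normalization Id3 turned to -0.062 in Ovol1/2 DKO against labelled Ovol1 KO. Levels near background, those of Bmp2, Bmp15 and Bmp8b in Ovol1/2 DKO, limit how far a fall can be sized.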

Other observations

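Dlx3 and Dlx5, homeobox genes of the epidermis that respond to BMP in several tissues, were high on a single array. Dlx3 read 7.53 and 6.92 on the Ovol1/2 DKO arrays, 9.64 and 6.89 on labelled Ovol1 KO replicates 1 and 2, and 7.57 and 7.30 on the control arrays. Dlx5 read 7.31 and 6.83 on the Ovol1/2 DKO arrays, 9.335 and 6.29 on labelled Ovol1 KO replicates 1 and 2, and 7.08 and 6.60 on the control arrays. The high array is the one with Eif2s3y signal.

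Grem1, a secreted BMP antagonist of stromal cells, was higher on replicate 2 of every group: 6.62 and 7.87 on Ovol1/2 DKO replicates 1 and 2, 6.69 and 8.76 on the labelled Ovol1 KO arrays, and 6.50 and 8.51 on the control arrays.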
